A study of Mus musculus with 9 samples.

Results

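The subunits of oxidative phosphorylation that are encoded in the nucleus were followed in hepatic stellate cells (HSCs) and in activated fibroblasts of 2 mouse models of liver fibrosis. They were found by symbol, as genes whose names start with Nduf, Sdh, Uqcr, Cox or Atp5 in the forms used for respiratory chain and ATP synthase subunits. Of 84 matching symbols, Cox8c and Cox7b2 had no read in any library, which left 82 genes of 24453. They comprise 35 genes of complex I, 4 of complex II, 8 of complex III, 18 of complex IV and 17 of complex V. Ndufa4 was placed in complex IV, where its product is found, together with its relative Ndufa4l2. Atp5s and Atp5sl matched by name and were kept with complex V, although their products are not parts of the mature enzyme. The deposited table holds 0 genes of the mitochondrial genome, so the subunits encoded there were not analysed.

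All mice were on the C57BL/6J background. The HSC group came from untreated wild-type livers and was isolated by density gradient. CCl4-fib were sorted as CD45- GFP+ cells from Col1a2-GFP Tg mice given intraperitoneal carbon tetrachloride 2 times a week for 8 weeks. NASH-fib were sorted by the same gate from male MC/COL mice, which carry the Col1a2-GFP transgene and lack the melanocortin 4 receptor, after a Western diet (WD) of 20 weeks begun at 8 weeks of age. In the sorted groups GFP was driven by the collagen α2(I) promoter, so the gate selects cells that transcribe collagen, whereas the HSCs were not sorted and came from mice with no transgene named. Isolation method and disease therefore cannot be told apart in a comparison with HSCs, nor can receptor loss and diet within NASH-fib. Each group had 3 libraries, each pooled from 3 to 5 mice, so p-values measure the spread between pools. The ages of the other mice are not given in the sources used here.

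Oxidative phosphorylation runs in the inner mitochondrial membrane. Complexes I and II pass electrons from NADH and succinate to ubiquinone, complex III passes them on to cytochrome c, complex IV hands them to oxygen, and complex V makes ATP from the proton gradient that complexes I, III and IV build. Complexes I, III, IV and V each have a core that does the chemistry and accessory subunits around it. Some complex IV subunits exist as alternative isoforms that differ between tissues or respond to oxygen. Quiescent HSCs store retinoids, and on activation they become collagen-producing, contractile fibroblasts.

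Values are read counts per gene that the authors scaled by 1 factor per library, and differences are on the scale of log2(value + 1). The reads on genes ran from 3071070 to 3825522 in HSC libraries, from 4687349 to 5634273 in CCl4-fib and from 3289758 to 5021156 in NASH-fib. HSC 2 and NASH-fib 1 stood apart. A value under 50% of that in both sister libraries was found for 26 of the 81 tested members in HSC 2 (32.1%, against 19.4% of all 13651 genes tested) and for 39 in NASH-fib 1 (48.1%, against 26.6%). For 21 members this was so in both libraries (25.9%, against 13.2%). The descriptions of HSC 2, NASH-fib 1 and CCl4-fib 1 begin with the same date-like prefix, and CCl4-fib 1 was not low in this way. Calls lost without 1 or both of these libraries are named with each comparison.

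The members together took a larger share of the reads in CCl4-fib than in the other groups. They held 1.09%, 0.898% and 1.27% of the reads in HSC 1, 2 and 3. In CCl4-fib 1, 2 and 3 the share was 1.69%, 1.42% and 1.51%, and in NASH-fib 1, 2 and 3 it was 0.969%, 1.39% and 1.27%. The CCl4-fib libraries thus lay above every HSC and NASH-fib library, and HSCs and NASH-fib overlapped. Complex I carried most of this, with 0.178% to 0.416% of the reads in HSCs, 0.540% to 0.653% in CCl4-fib and 0.210% to 0.442% in NASH-fib. Complex V held 0.282% to 0.334% in HSCs and 0.380% to 0.426% in CCl4-fib. Complex III held nearly the same share in each group, from 0.156% to 0.206% over the 9 libraries. In bulk libraries such as these, a lower level cannot be told apart from fewer cells of a type that has more of the transcript.

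**Figure D1:**
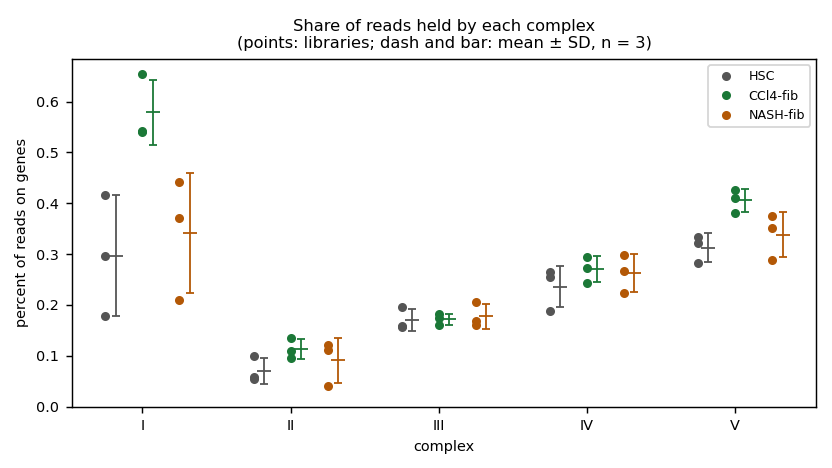
Percent of the reads on genes held by the members of each complex, with 1 point per library and the mean ± SD of 3 libraries beside it. The CCl4-fib libraries lie above the HSC and NASH-fib libraries for complexes I and V, and the groups overlap for complexes II, III and IV.

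CCl4-fib were compared with HSCs to see how activation in the chemical model goes with the respiratory chain. A gene was called at a 2-fold change and an adjusted p under 0.05 by limma with Benjamini-Hochberg adjustment over the 13651 genes tested. Of the 81 tested members, 19 were called higher in CCl4-fib (23.5%, against 16.2% of all genes) and 1 was called lower (1.23%, against 11.7%). The median log2 fold change was 0.88 over the members and 0.18 over all genes. Complex I had 11 of its 35 genes called higher and a median of 1.67. The medians were 0.83 for the 4 genes of complex II, 0.89 for 8 of complex III, 0.13 for 17 of complex IV and 0.48 for 17 of complex V. All 3 CCl4-fib libraries were above all 3 HSC libraries for 30 members (37.0%, against 27.8% of all genes) and below them for 11 (13.6%, against 20.9%).

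**Figure D2:**
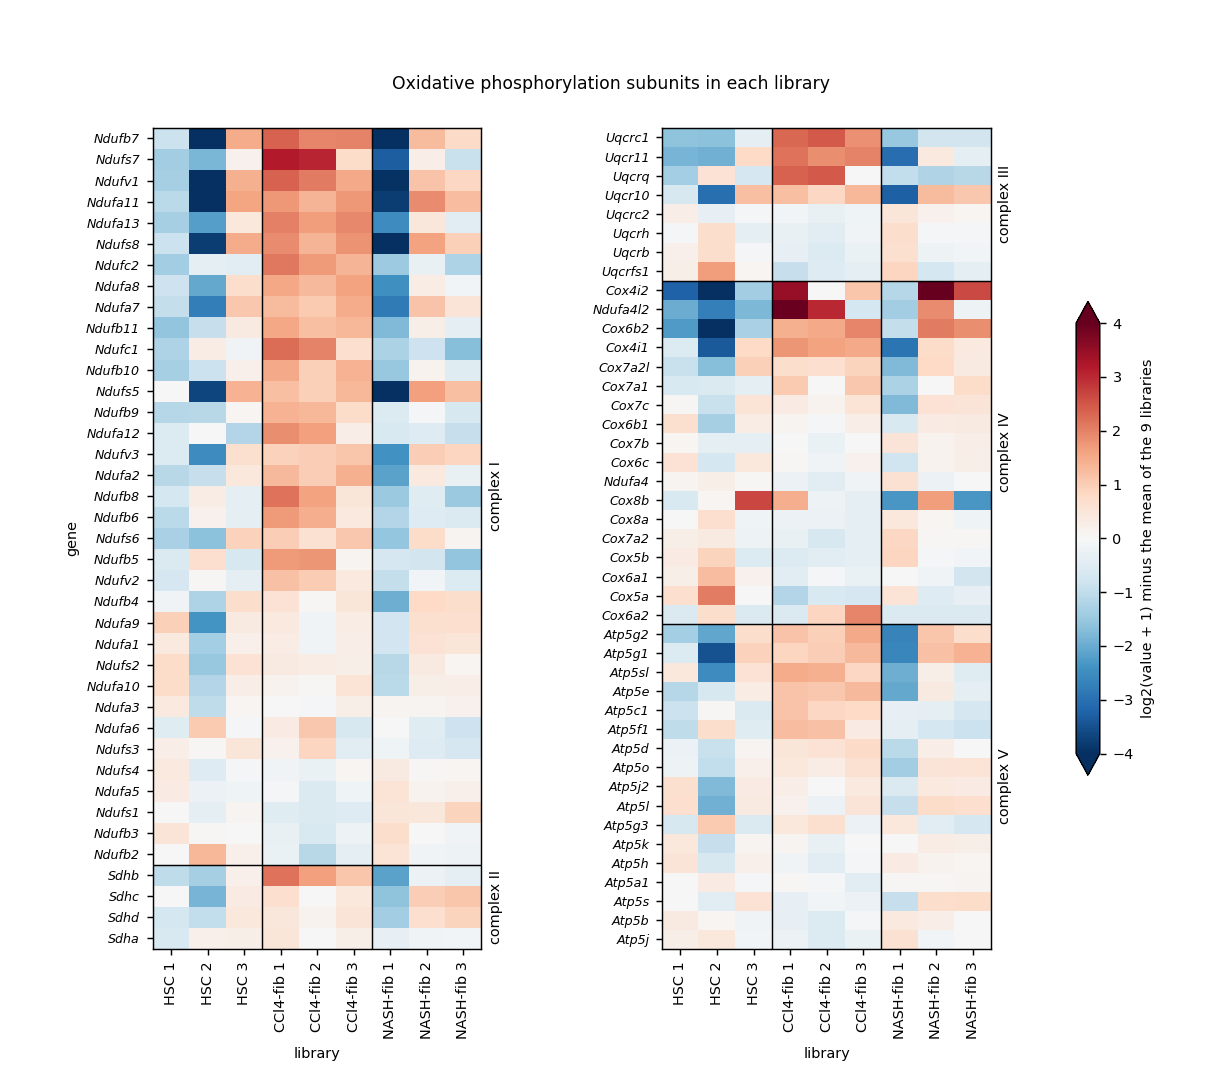
Heat map of log2(value + 1) minus its mean over the 9 libraries, for the 82 members in rows by complex and the libraries in columns; red is above the gene's mean and blue below. Much of complex I is high in the 3 CCl4-fib libraries and low in HSC 2 and NASH-fib 1, as are single genes of the other complexes such as Uqcr10, Cox4i1 and Atp5g1.

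The members called higher in complex I came from both its core and its shell. The core subunits are those with counterparts in bacteria, and 2 of the 7 encoded in the nucleus were called, Ndufs7 and Ndufv2. Of all genes tested, 16.2% were called higher, and the share of the core rests on few genes. Ndufs7, whose product carries the last iron-sulfur cluster before ubiquinone, had values of 33.9, 24.8 and 100.4 in HSC 1, 2 and 3, and of 813, 755 and 151 in CCl4-fib 1, 2 and 3 (log2 fold change 3.33, SE 0.95, limma adjusted p = 0.0255). CCl4-fib 3 was well below its sisters but above every HSC library. Ndufv2, an iron-sulfur subunit of the NADH-oxidising tip, had values of 291, 485 and 362 in HSCs and of 1064, 946 and 619 in CCl4-fib (log2 fold change 1.20, SE 0.37, limma adjusted p = 0.0344).

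Of the 28 accessory subunits of complex I, 9 were called higher, against 16.2% of all genes tested. The median log2 fold change of the 28 was 1.73, against 0.18 over all genes. Ndufc2, a small membrane subunit, had the smallest adjusted p in complex I. Its values were 103, 209.7 and 199.7 in HSCs and 1168, 891 and 696 in CCl4-fib (log2 fold change 2.46, SE 0.44, limma adjusted p = 0.00212), and the groups did not overlap. Its partner Ndufc1 had 53.8, 159 and 117 in HSCs against 601, 509 and 206 in CCl4-fib (1.98, SE 0.54, limma adjusted p = 0.0208). Ndufa13, also known as the cell-death regulator Grim19, had values of 160.2, 87.4 and 536 in HSCs and of 1633, 1295 and 1514 in CCl4-fib (2.90, SE 0.77, limma adjusted p = 0.0185). The other accessory subunits called were Ndufa12, Ndufb6, Ndufb8, Ndufb9, Ndufb10 and Ndufb11, with log2 fold changes from 1.59 for Ndufb6 to 2.09 for Ndufb11. Ndufb9 had values of 146, 150.0 and 341 in HSCs and of 855, 823 and 541 in CCl4-fib. Ndufb8 had 152, 309 and 195 against 1127, 763 and 349, where CCl4-fib 3 was the lowest of its group. For Ndufb11 the values were 182, 285 and 698 in HSCs and 1614, 1267 and 1382 in CCl4-fib. The Ndufb proteins sit in the membrane arm, which pumps protons. Reads were counted from both strands, and exons of Ndufa13, Ndufb5, Ndufb6 and Ndufb11 overlap another protein-coding gene on the opposite strand, while those of Ndufb8 and Ndufb9 overlap one on the same strand. Of the 36-base stretches of Ndufa12, 57.6% also occur in other genes' transcripts, so its reads are less certain.

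The largest difference in complex I was not called. Ndufb7 had values of 106, 7.28 and 545 in HSCs and of 1006, 752 and 773 in CCl4-fib. The log2 fold change was 3.41 with an interval from -0.09 to 6.92 (limma adjusted p = 0.134). Ndufv1, whose product binds NADH and the flavin that takes its electrons, had 71.3, 10.2 and 487 in HSCs against 937, 769 and 527 in CCl4-fib (3.31, limma adjusted p = 0.113). For both genes every CCl4-fib library was above every HSC library, and HSC 2 lay far below HSC 1 and HSC 3. With HSC 2 and NASH-fib 1 left out together, both were called, at 1.79 for Ndufb7 and 1.95 for Ndufv1 (limma adjusted p = 0.0306 and 0.0389). Without HSC 2 alone the fold changes were the same and neither was called (limma adjusted p = 0.421 and 0.353). Not every gene of complex I was higher. Ndufs1, the largest core subunit, had 801, 625 and 855 in HSCs against 567, 531 and 553 in CCl4-fib, and Ndufb2 had 46.8, 118 and 53.8 against 38.9, 21.3 and 36.2. These 2 genes were lower in every CCl4-fib library without passing the test (log2 fold changes of -0.45 and -1.08, limma adjusted p = 0.276 and 0.140).

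In complex II, which is also an enzyme of the citric acid cycle, the iron-sulfur subunit stood out. Sdhb had values of 134, 108 and 312 in HSCs and of 1227, 842 and 592 in CCl4-fib (log2 fold change 2.35, SE 0.58, limma adjusted p = 0.0130). The flavoprotein Sdha, which oxidises succinate, had 871, 1539 and 1555 against 1851, 1326 and 1574, and the membrane anchors Sdhc and Sdhd had log2 fold changes of 0.88 and 0.79 with overlapping libraries. Sdhb was thus the member of the 4 whose groups did not overlap. Per kilobase of exon, Sdhb was the lowest of the 4 in each HSC library, at 101 to 294, while in CCl4-fib the 4 levels lay within a factor of 1.93 to 2.08 of each other.

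Uqcrc1 in complex III had the smallest adjusted p of the 81 members in this comparison. It encodes a core protein that faces the matrix, and it lies on chromosome 9, 108936648 to 108949641 in mm10. Its values were 15.2, 14.6 and 37.1 in HSCs and 241, 265 and 174 in CCl4-fib (log2 fold change 3.40, SE 0.50, limma adjusted p = 0.000754). The partner core protein Uqcrc2 had 2246, 1484 and 1803 in HSCs against 1722, 1519 and 1668 in CCl4-fib, so the libraries overlapped. The small subunits Uqcr11 and Uqcrq were also called, at 2.99 and 2.08 (limma adjusted p = 0.0307 and 0.0446), although 1 CCl4-fib library of Uqcrq, at 121, was below HSC 2, at 183. Uqcrfs1, the Rieske iron-sulfur protein, went the other way without passing the test, with 221, 601 and 197 in HSCs and 99.2, 132 and 146 in CCl4-fib (-1.25, limma adjusted p = 0.107).

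Complex IV gave the 3 largest differences and the member called lower. The isoform genes Cox4i2, Cox6b2 and Ndufa4l2, described below, were called higher at log2 fold changes of 5.08, 4.25 and 4.25. Cox5a, a subunit on the matrix side, had 180, 478 and 116 in HSCs and 50, 74.8 and 70.6 in CCl4-fib (-1.73, SE 0.54, limma adjusted p = 0.0368). HSC 2 held the highest value, and without it the difference was -1.16 and was not called (limma adjusted p = 0.121), while with NASH-fib 1 left out too the same difference was called (limma adjusted p = 0.0419). Other genes' transcripts hold 42.6% of its 36-base stretches. In complex V, the central stalk subunit Atp5c1, which turns inside the catalytic head, was called higher, with 717, 1331 and 864 in HSCs and 2868, 2284 and 2225 in CCl4-fib (1.38, SE 0.33, limma adjusted p = 0.0104). The catalytic subunit Atp5b, in contrast, had 1648, 1363 and 1168 against 1018, 883 and 1236.5. Atp5g1, Atp5g2 and Atp5g3 encode the same mature ring subunit. They had log2 fold changes of 2.08, 2.10 and 0.34, none was called, and the CCl4-fib libraries overlapped HSC 3 for Atp5g1. Of the 36-base stretches of Atp5g1, Atp5g2 and Atp5g3, 13.8%, 87.6% and 0% also occur in other genes' transcripts.

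**Figure D3:**
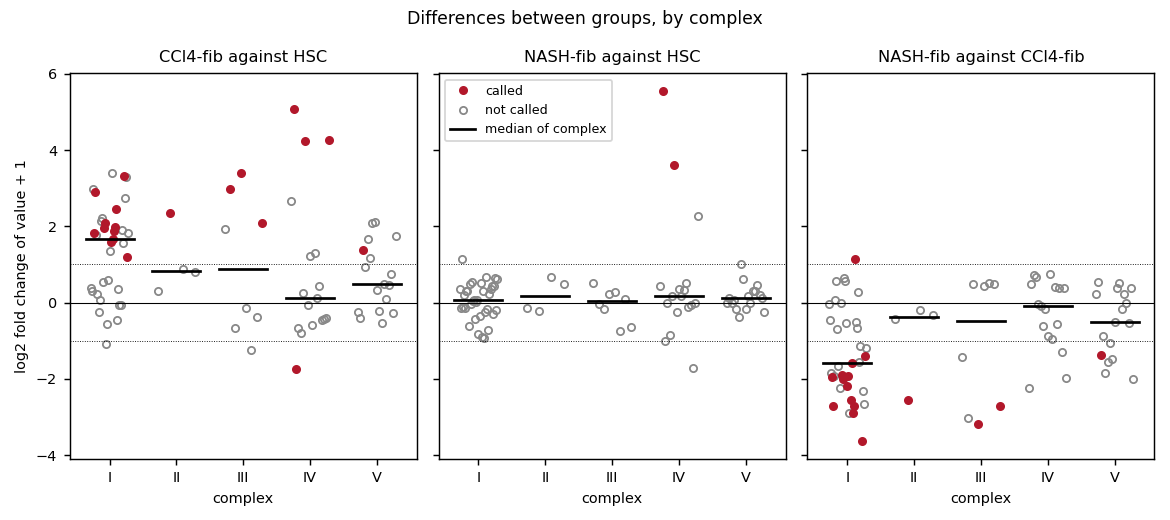
Log2 fold change of value + 1 for each tested member, by complex, in the 3 comparisons; filled red points are called, open grey points are not, black lines are the medians of a complex and dotted lines mark 2-fold. The median of complex I is 1.67 for CCl4-fib against HSCs, 0.08 for NASH-fib against HSCs and -1.57 for NASH-fib against CCl4-fib.

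Single libraries weighed on these counts. Without CCl4-fib 1 the number called higher was 4, without HSC 1 it was 7 and without CCl4-fib 2 it was 8, and the share of all genes called higher fell too, to 10.0%, 11.5% and 9.62%. Without NASH-fib 1, which enters through the shared estimate of spread, 28 members were called (20.9% of all genes), and 28 also when HSC 2 was left out with it (19.4% of all genes). Without HSC 2 alone the calls of Ndufa13, Ndufb11, Ndufs7, Uqcr11, Ndufa4l2, Cox4i2 and Cox5a were lost, with log2 fold changes of 2.33 for Ndufa13, 1.98 for Ndufb11, 2.93 for Ndufs7, 2.53 for Uqcr11 and 3.97 for Ndufa4l2 (limma adjusted p = 0.0630, 0.0576, 0.0775, 0.0958 and 0.0536). With both libraries left out all 20 calls were made. With the date-like prefix as a term of the fit, 5 members were called higher (10.4% of all genes) and 0 lower by limma. HSC 1 is the only library with its prefix, so that fit took no difference between groups from it. The fall in calls cannot be told apart from the loss of that library. The median over members was 0.51 without HSC 2. Among pairs of libraries whose descriptions begin alike, the median log2 difference of members was 1.63 for CCl4-fib 1 against HSC 2 (0.29 over all genes) and -0.05 for CCl4-fib 2 against HSC 3 (0.15 over all genes). The shift of the whole set was therefore not seen in both pairs. Uqcrc1, Ndufc2, Ndufb9 and Cox6b2 were the members called in this comparison under every alternative that tested them.

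Upstream sequences of members that differed and of members that did not are shown to let their promoters be compared. The windows run from 250 bases before to 50 bases after the transcription start (RefSeq, GRCm38.p6) and read 5′ to 3′ on the strand of the gene. Capitals mark matches, on either strand, to the core motifs of 3 factors long tied to respiratory genes: CCGGAAG for ETS factors such as GABPA, GCATGCG for NRF1 and AAGATGG for YY1. The NRF1 core overlaps its own reverse complement in the palindrome, so such a site counts on both strands. Uqcrc1 lies at chr9:108936398-108936697 on the plus strand, Sdhb at chr4:140961021-140961320 on the plus strand, Uqcrh at chr4:116075021-116075320 on the minus strand and Cox6b2 at chr7:4753045-4753344 on the minus strand.
Uqcrc1: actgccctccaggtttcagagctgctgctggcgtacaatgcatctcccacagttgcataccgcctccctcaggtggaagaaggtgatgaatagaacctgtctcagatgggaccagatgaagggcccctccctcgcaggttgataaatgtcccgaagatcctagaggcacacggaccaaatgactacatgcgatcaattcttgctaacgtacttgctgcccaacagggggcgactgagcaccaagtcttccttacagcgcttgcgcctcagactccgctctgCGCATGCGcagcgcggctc
Sdhb: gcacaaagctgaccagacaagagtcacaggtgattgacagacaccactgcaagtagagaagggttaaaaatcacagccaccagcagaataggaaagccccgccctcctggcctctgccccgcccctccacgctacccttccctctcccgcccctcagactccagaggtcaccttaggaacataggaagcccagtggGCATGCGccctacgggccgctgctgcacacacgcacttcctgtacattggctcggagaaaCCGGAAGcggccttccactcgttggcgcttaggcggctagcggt
Uqcrh: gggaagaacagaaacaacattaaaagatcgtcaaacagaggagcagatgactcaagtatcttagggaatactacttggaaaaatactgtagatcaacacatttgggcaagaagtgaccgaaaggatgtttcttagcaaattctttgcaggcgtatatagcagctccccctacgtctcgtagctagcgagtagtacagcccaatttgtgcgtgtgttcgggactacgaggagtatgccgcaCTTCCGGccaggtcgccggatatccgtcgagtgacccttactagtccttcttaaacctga
Cox6b2: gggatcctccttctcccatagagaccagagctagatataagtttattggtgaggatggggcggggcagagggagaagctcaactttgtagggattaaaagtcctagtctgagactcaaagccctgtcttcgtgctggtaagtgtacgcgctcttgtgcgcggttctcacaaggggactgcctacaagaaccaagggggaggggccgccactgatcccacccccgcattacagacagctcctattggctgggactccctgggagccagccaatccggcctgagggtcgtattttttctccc

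Uqcrc1 and Sdhb were called higher in CCl4-fib, Uqcrh encodes the hinge protein of the same complex as Uqcrc1 and was not called, and Cox6b2 is an isoform gene. The Uqcrc1 window holds a palindromic NRF1 core, that of Sdhb an NRF1 and an ETS core, that of Uqcrh an ETS core, and that of Cox6b2 none of the 3. Windows were found for 68 members. The ETS core was in 16 of them (23.5%, against 9.93% of the windows of 27025 genes), the NRF1 core in 11 (16.2%, against 4.01%) and the YY1 core in 12 (17.6%, against 7.28%). The members' windows were richer in GC, with a median of 57.8% against 52.75% over all genes with a window. These shares were not adjusted for it. Among the 15 windows of members called higher in CCl4-fib, each core was found in 3 (20%). Among the 53 windows of the other tested members the ETS core was in 13 (24.5%), the NRF1 core in 8 (15.1%) and the YY1 core in 9 (17.0%). A match describes letters in the window and shows no binding.

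NASH-fib were compared with HSCs to ask the same of the metabolic model. Only 2 of 81 members were called higher (2.47%, against 8.23% of all genes) and 0 were called lower by limma (against 4.3%). At an unadjusted p under 0.05, 3 members were higher and 0 lower by limma (3.70% and 0%, against 12.6% and 9.78% of all genes). With edgeR 2 were called higher and 0 lower (8.02% and 3.52% of all genes), and with DESeq2 3 and 0 (10.4% and 5.44% of all genes). The median log2 fold change was 0.08 over members and -0.02 over all genes, and the medians of the 5 complexes ran from 0.04 to 0.17. The libraries did not overlap for 8 members, 5 above and 3 below (6.17% and 3.70%, against 12.7% and 11.6% of all genes).

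The members called were Cox4i2 and Cox6b2. The spread between NASH-fib libraries was wide, so these data allow large differences that the test could not show. For Ndufc1, for instance, the log2 fold change was -0.92 with an interval from -2.11 to 0.28, and for Cox5a it was -1.01 with an interval from -2.21 to 0.19. Cox8b, a heart and skeletal muscle isoform, had the largest difference downwards, -1.72, at values of at most 31.1. Ndufs1 was higher in each NASH-fib library (1109, 1082 and 1481) than in any HSC library (801, 625 and 855), with a log2 fold change of 0.68 (limma adjusted p = 0.197). In the pair of NASH-fib 1 and HSC 2, whose descriptions begin alike, the median of members was -0.21 (-0.10 over all genes).

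NASH-fib and CCl4-fib were compared to see where the models part. Of the 81 members, 16 were called lower in NASH-fib (19.8%, against 5.66% of all genes) and 1 was called higher (1.23%, against 4.97%), and the median log2 fold change was -0.66, against -0.11 over all genes. Every NASH-fib library was below every CCl4-fib library for 27 members (33.3%, against 22% of all genes) and above for 16 (19.8%, against 17.1%). Complex I had 12 of its 35 genes called lower, namely Ndufa12, Ndufa13, Ndufb5, Ndufb6, Ndufb8, Ndufb9, Ndufb10, Ndufb11, Ndufc1, Ndufc2, Ndufs7 and Ndufv2. The other 4 were Sdhb, Uqcrc1, Uqcrq and Atp5c1. The comparison uses the same CCl4-fib libraries as that with HSCs, so the lists are not independent. They share 15 members, which is 78.9% of the 19 and 93.8% of the 16.

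Uqcrc1 had values of 16.3, 28.5 and 28.5 in NASH-fib 1, 2 and 3, near the 14.6 to 37.1 of HSCs and far below the 174 to 265 of CCl4-fib (log2 fold change -3.18, SE 0.50, limma adjusted p = 0.00863). Ndufc2 had 99.2, 222 and 114 in NASH-fib against 696 to 1168 in CCl4-fib (-2.72, SE 0.44, limma adjusted p = 0.00944). Sdhb had 61.2, 229.8 and 207.4 in NASH-fib against 592 to 1227 (-2.56, SE 0.58, limma adjusted p = 0.0241). For these 3 genes the NASH-fib libraries overlapped the HSC libraries and lay apart from CCl4-fib. Ndufs7 gave the largest difference, -3.63 (SE 0.95, limma adjusted p = 0.0375), with 8.16, 108 and 48.2 in NASH-fib. Ndufb5, which was not called against HSCs, stood at 733, 763 and 243 in CCl4-fib, against 140.0, 134 and 74.7 for the NASH-fib libraries (-2.19, SE 0.54, limma adjusted p = 0.0314). Uqcr11 had the third largest, -3.02, and was not called (limma adjusted p = 0.0553).

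Ndufs1 was the member called higher in NASH-fib. Its values of 1109, 1082 and 1481 were above the 531 to 567 of CCl4-fib in every library (log2 fold change 1.14, SE 0.30, limma adjusted p = 0.0367). Exons of Ndufs1 overlap those of Eef1b2 on the opposite strand, so their reads cannot be told apart there. Cox7a2 and Cox5a followed in size with 0.74 and 0.72 and were not called (limma adjusted p = 0.171 and 0.409).

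The median of this comparison rested on NASH-fib 1. Without that library it was -0.07 over members, and 6 were called lower (2.54% of all genes). The calls lost were Ndufa12, Ndufa13, Ndufb5, Ndufb6, Ndufb9, Ndufb10, Ndufb11, Ndufs1, Ndufs7, Ndufv2 and Uqcrq, at limma adjusted p from 0.0507 for Ndufb5 to 0.123 for Ndufb11. The number called lower was 2 without CCl4-fib 1, without CCl4-fib 2 or without NASH-fib 3, and 10 without CCl4-fib 3, where the shares of all genes were 1.39%, 0.515%, 1.11% and 2.84%. With the date-like prefix as a term of the fit it was 3 (1.82% of all genes), and 0 were called higher by limma. With HSC 2 and NASH-fib 1 left out together it was 16, and of the 17 calls in either direction 15 were shared with those made on all libraries. Ndufb10 and Ndufb11 were lost, at -1.45 each (limma adjusted p = 0.0520 and 0.0705). Within pairs whose descriptions begin alike, the median of members was -1.95 for NASH-fib 1 against CCl4-fib 1, -0.10 for NASH-fib 2 against CCl4-fib 3 and -0.25 for NASH-fib 3 against CCl4-fib 3. Of the 81 members, 51, 14 and 23 were lower by at least 2-fold in these pairs (63.0%, 17.3% and 28.4%, against 37.0%, 14.0% and 20.8% of all genes).

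Cox4i2, Cox6b2 and Ndufa4l2 were low in HSCs and higher in every fibroblast library, which did not hold for the muscle isoforms Cox8b and Cox6a2. For NASH-fib 1 the margin over HSC 3 was a matter of few reads. It had 21 reads of Cox4i2, 18 of Cox6b2 and 12 of Ndufa4l2, against 20, 16 and 10 in HSC 3. Cox4i1 and Cox4i2 encode alternative forms of the subunit through which ATP slows the enzyme, and Cox4i2 is known from lung and from hypoxic cells. Cox4i2 (chromosome 2, 152754173 to 152765037) had values of 5.84, 0 and 23.9 in HSCs. In CCl4-fib it had 725, 63.8 and 140.2, and in NASH-fib 28.6, 1506 and 400.0. Both groups of fibroblasts lay above every HSC library, and within each the libraries differed widely. The log2 fold change was 5.08 for CCl4-fib (SE 1.51, limma adjusted p = 0.0297) and 5.56 for NASH-fib (SE 1.51, limma adjusted p = 0.0347). The first was lost in 6 of 21 alternatives and the second in 8 of 21, among them the fits without HSC 2 (limma adjusted p = 0.0973 and 0.104). With HSC 2 and NASH-fib 1 left out together both were called, at 3.85 and 5.90 (limma adjusted p = 0.0118 and 0.00377).

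Per kilobase of exon, Cox4i2 made up 0% to 1.76% of the sum of both isoforms in HSCs, 2.64% to 21.8% in CCl4-fib and 22.1% to 54.1% in NASH-fib. The share in NASH-fib 1 came from low values of both, since Cox4i1 was at 92.4 there against 1177 and 914 in NASH-fib 2 and 3. Cox4i1 itself had 482, 67.0 and 1224 in HSCs and 2392, 2159 and 2010.2 in CCl4-fib. That difference, 2.67, was not called (limma adjusted p = 0.0896), and it was called at 1.51 with HSC 2 and NASH-fib 1 left out (limma adjusted p = 0.00930). Without HSC 2 alone it was also 1.51 and was not called (limma adjusted p = 0.291). Exons of Cox4i1 overlap those of Emc8 on the opposite strand.

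Cox6b2, an isoform known from testis, had 9.35, 1.46 and 19.1 in HSCs, 131, 139 and 188 in CCl4-fib. The NASH-fib libraries stood at 24.5, 207 and 179. No fibroblast library was as low as any HSC library, although NASH-fib 1 was above HSC 3 by few reads only (log2 fold change 4.25 for CCl4-fib, SE 0.90, limma adjusted p = 0.00594, and 3.62 for NASH-fib, SE 0.90, limma adjusted p = 0.0233). Without HSC 2 the NASH-fib call was lost, at 2.77 (limma adjusted p = 0.0630). Its ubiquitous counterpart Cox6b1 had 521 to 2026 in HSCs, 1260 to 1593 in CCl4-fib and 856 to 1699 in NASH-fib. Per kilobase, Cox6b2 made up 0.241% to 1.02% of the pair in HSCs, 7.43% to 9.24% in CCl4-fib and 2.41% to 9.78% in NASH-fib. None of the 36-base stretches of Cox6b2 was found in transcripts of another gene, and none of Cox4i2 either.

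Ndufa4l2, a gene known to rise in hypoxia, had 10.5, 5.82 and 12.0 in HSCs, 701, 363 and 26.7 in CCl4-fib. The NASH-fib libraries stood at 16.3, 168 and 38.3. It was called for CCl4-fib (4.25, SE 1.14, limma adjusted p = 0.0190) and not for NASH-fib (2.27, limma adjusted p = 0.283), although all fibroblast libraries lay above all HSC libraries, NASH-fib 1 by few reads. The difference between the fibroblast groups, -1.98, was not called (limma adjusted p = 0.276). Its exons overlap those of Shmt2 on the opposite strand. Ndufa4 had 1465 to 3007 over the 9 libraries. The ubiquitous or liver forms had 113 to 236 for Cox8a, 132 to 515 for Cox6a1, 898 to 2478 for Cox7a2 and 193 to 1274 for Cox7a2l, and none of these was called in any of the 3 comparisons. The muscle isoforms were low, with 4.08 to 24.8 for Cox7a1, 0 to 4.77 for Cox6a2 and 0 to 31.1 for Cox8b.

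**Figure D4:**
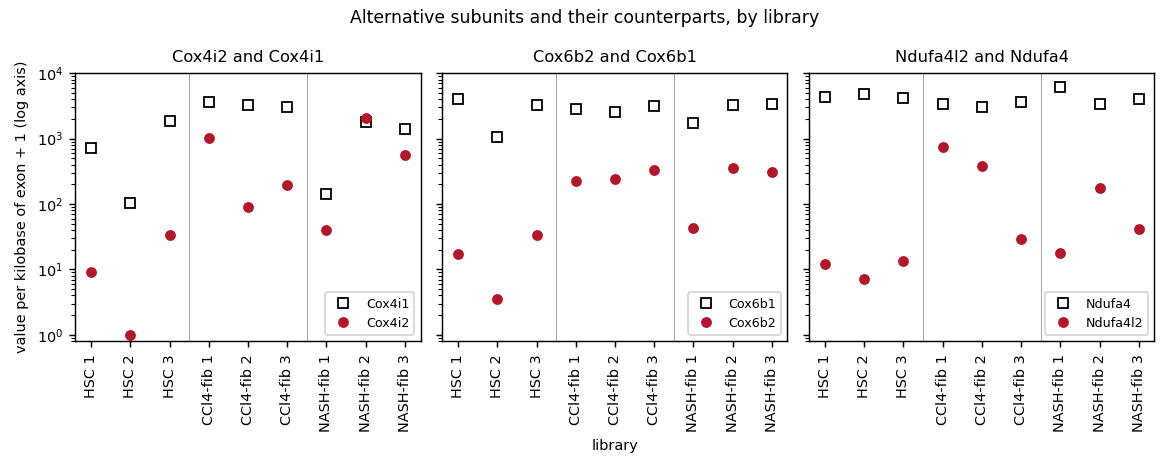
Value per kilobase of exon, plus 1, on a log axis for 3 isoform genes (filled) and their ubiquitous counterparts (open) in each library. The filled points of Cox4i2, Cox6b2 and Ndufa4l2 are higher in every CCl4-fib and NASH-fib library than in the HSC libraries, in NASH-fib 1 by little, and Cox4i2 passes Cox4i1 in NASH-fib 2.

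Markers of other cells were set beside these genes, and within groups they did not all follow them. The 6 smooth muscle markers summed to 102 to 378 in HSCs, 3097 to 14165 in CCl4-fib and 5001 to 21403 in NASH-fib, with 5 of 6 called higher in each fibroblast group, and Casq2 at 0 in every HSC library. Myh11, the myosin of smooth muscle, had 9805, 1647 and 1610.4 in CCl4-fib, against 2410.2, 13649 and 7507 for the NASH-fib libraries, so CCl4-fib 1 and NASH-fib 2 held the highest Myh11 and the highest Cox4i2 of their groups. Actg2, Cnn1, Des and Lmod1 were also highest in these libraries. Like Cox4i2, these markers and Myh11 were lowest of NASH-fib in NASH-fib 1. Within CCl4-fib, Actg2, Des and Lmod1 were lowest in CCl4-fib 2, as Cox4i2 was, and Cnn1, Casq2 and Myh11 in CCl4-fib 3. Casq2, in contrast, was highest in NASH-fib 1, at 1966, where Cox4i2 was lowest of its group, at 28.6. Cox6b2 was lowest of CCl4-fib in CCl4-fib 1, at 131. Ndufa4l2 stood at 363 and 26.7 in CCl4-fib 2 and 3, whose Myh11 was nearly the same. The 7 pericyte and mural markers summed to 25704 to 42040 in HSCs, 3047 to 16424 in CCl4-fib and 18504 to 32388 in NASH-fib. Rgs5 and Abcc9 carried that sum, while 3 of the 7 were called higher in each fibroblast group, and Higd1b, at 0 to 5.98 in HSCs, had 61.2 to 582 in CCl4-fib and 473 to 1182 in NASH-fib. Across the 9 libraries the genes most like Cox4i2 by Pearson's r of log2(value + 1) were Plin4 (0.986), Dusp8 (0.985), Sncg (0.984), Plekhb2 (0.982) and Nfatc4 (0.981). Those most like Ndufa4l2 were Smarcd3 (0.950), Calcoco1 (0.948), Camk1g (0.941), Haghl (0.937) and Anxa11 (0.936). These are descriptions over libraries that share groups. The part of such cells in the isoform levels was not tested.

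The summed markers of HSCs and of fibroblasts followed the labels, single markers did not all do so, and markers of other cells were present in all groups. Quiescent stellate markers (8 genes) summed to 30894 to 37682 in HSCs, 4340 to 7302 in CCl4-fib and 2168 to 4279 in NASH-fib, and activated fibroblast markers (7 genes) to 6261 to 12011, 45780 to 52913 and 23531 to 28038. Postn, on the activated list, was highest in HSCs, with 2971 to 5577 against 1435 to 2159 in CCl4-fib and 908 to 2353 for NASH-fib. Hepatocyte markers (10 genes) summed to 23183 to 44727 in HSCs, 2259 to 3301 in CCl4-fib and 7885 to 30270 in NASH-fib. Of these, 8 of 10 were called lower in CCl4-fib than in HSCs, and 5 of 10 were called higher in NASH-fib than in CCl4-fib. Macrophage markers (6 genes) summed to 364 to 726 in CCl4-fib, against 3818 to 13149 in HSCs and 2722 to 5740 in NASH-fib. Markers of sinusoidal endothelium (5 genes) summed to 3850.1 to 10252 in HSCs, 157 to 190.5 in CCl4-fib and 821 to 2801 in NASH-fib, and those of neutrophils (4 genes) to 43.0 to 1003, 2.38 to 41.0 and 580.5 to 5118. Cholangiocyte markers (4 genes) summed to 30.4 to 69.9, 1373 to 3223 and 874 to 1116, and lymphocyte markers (4 genes) to at most 188.7 in any library. Krt19 made up most of the cholangiocyte sum in CCl4-fib, at 771 to 2699, against 53.0 to 469 in NASH-fib. Epcam and Sox9 went the other way. Epcam had 0.85 to 7.94 in CCl4-fib and 20.6 to 66.6 in NASH-fib, and Sox9 had 113.5 to 237 and 254 to 578. Krt7 overlapped between the fibroblast groups. Genes of proliferating cells (4 genes) summed to 214 to 222, 339 to 587 and 163 to 336. Cd3e, Nkg7 and Ly6g were at 0 in every CCl4-fib library. The part of these cells in the members' levels was not tested.

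GC content moved with the differences between libraries and between groups. Among members with exons of 55% GC and over (24 genes), the median log2 difference of NASH-fib 1 from the mean of its sisters was -2.76, and among those under 50% (28 genes) it was -0.20. For HSC 2 the medians were -1.42 and -0.21. Over all genes tested, the medians of these 2 classes were -1.19 and 0.43 for NASH-fib 1 and -0.72 and 0.31 for HSC 2. The median difference of CCl4-fib from HSCs was 2.12 in the first class and 0.34 in the second, and over all genes it was 1.05 and -0.21. For NASH-fib against CCl4-fib the medians were -1.74 and -0.02 over members and -1.03 and 0.32 over all genes. For NASH-fib against HSCs they were 0.37 and 0.01 over members and -0.15 and 0.02 over all genes. The members called higher in CCl4-fib had a median GC content of 54.9%, against 51.4% for the other tested members. With GC content and length taken out of each library, 15 members were called higher and 3 lower in CCl4-fib against HSCs (14.7% and 14.2% of all genes), and 16 of the 20 calls were kept. The median over members was then 0.47, against 0.02 over all genes. In NASH-fib against CCl4-fib 8 members were then called lower (5.40% of all genes), and all 8 were among the 17 called before.

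**Figure D5:**
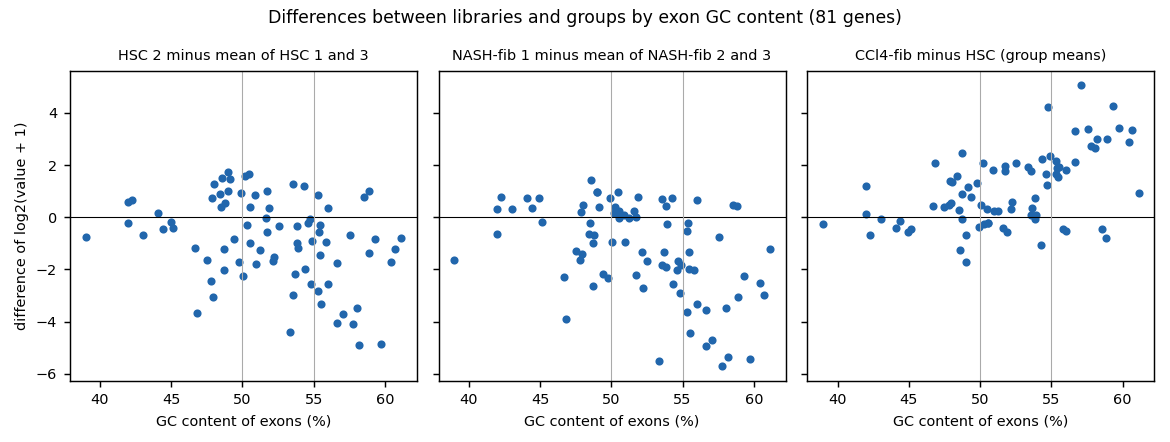
Differences of log2(value + 1) against the GC content of the exons for the 81 tested members, for HSC 2 against its sisters, NASH-fib 1 against its sisters, and CCl4-fib against HSCs; grey lines mark 50% and 55%. In the first 2 panels the points fall with GC content, to medians of -1.42 and -2.76 at 55% and over, and in the last they rise to 2.12.

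Levels were compared between members per kilobase of exon. In HSCs the highest means were those of Uqcrb (4719 ± 1360, SD, n = 3), Ndufa4 (4421 ± 297) and Uqcrh (4070 ± 1666), which overlapped within their spread. In CCl4-fib they were those of Ndufa4 (3358 ± 319), Cox4i1 (3304 ± 291) and Ndufa3 (3261 ± 361), and in NASH-fib those of Ndufa4 (4551 ± 1454), Uqcrh (4269 ± 1369) and Uqcrb (4217 ± 1412). Other genes' transcripts hold 54.0% of the 36-base stretches of Uqcrb, so its level is less certain. At the low end, Uqcrc1 stood at 13.6 ± 7.81 in HSCs and 14.9 ± 4.29 in NASH-fib, together with isoform genes and Atp5sl. The counting was limited to 3 reads per position with both strands counted, which flattens highly read genes. Whether the limit holds for each strand is not stated in the sources used here, and levels above 3 reads per base of exon occurred. Cox4i1 and Ndufa4 reached 4.55 reads per base in a library, 53 of the 82 members reached 1 and 15 reached 3. Of the 19 members called higher in CCl4-fib, 15 reached 1 read per base in at least 1 library.

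Genes that serve the same pathway were counted for comparison. Of 46 tested assembly factors, 5 were called higher and 1 lower in CCl4-fib against HSCs (10.9% and 2.17%, against 16.2% and 11.7% of all genes), among them Cox17, a copper chaperone for complex IV, Surf1, Cox16, Cox19 and Ndufaf3 as higher and Higd1a as lower. Of 18 citric acid cycle genes, 4 were called higher, namely Cs, Idh3a, Idh3b and Suclg1 (22.2%). Of 77 mitochondrial ribosomal proteins, 11 were called higher (14.3%, below the 16.2% of all genes), with Mrpl53 at a log2 fold change of 2.35 and Mrps18a at 4.35. Of 9 carriers, 4 were called higher. Slc25a4, the ADP/ATP exchanger that feeds complex V, had 422, 514 and 448 in HSCs and 2505, 2864 and 900 in CCl4-fib (log2 fold change 2.02, SE 0.45, limma adjusted p = 0.00750). The other 3 were Ucp2, Vdac1 and Ckmt1.

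The gene of these lists called in NASH-fib against HSCs was Ppargc1a, a coactivator that drives mitochondrial biogenesis. It had 0, 7.28 and 1.20 in HSCs, 18.3, 35.7 and 25.8 in CCl4-fib. The NASH-fib libraries stood at 78.8, 57.9 and 38.3. It was called higher in both fibroblast groups (log2 fold changes of 3.34 and 4.44, limma adjusted p = 0.00884 and 0.00315), and the groups did not overlap. In HSC libraries 3 reads stand at a value of 3.51 to 4.37, so Ppargc1a was near the floor there. The size of its fold changes therefore depends on the 1 added before the log. The other regulators of biogenesis, of 16 tested, were not called in these comparisons. In NASH-fib against CCl4-fib, 3 assembly factors, 1 citric acid cycle gene, 2 carriers and 7 ribosomal proteins were called lower (6.52%, 5.56%, 22.2% and 9.09%, against 5.66% of all genes). Slc25a4 had 473, 607 and 345 in NASH-fib (log2 fold change -2.01, SE 0.45, limma adjusted p = 0.0233), and its NASH-fib and HSC libraries overlapped.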

How the data were processed

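RNA from 3 HSC, 3 CCl4-fib and 3 NASH-fib pools was amplified with a low-input kit and sequenced single-end. The authors aligned reads to mm10 with STAR, counted them over RefSeq exons with HOMER (either strand, at most 3 reads per position) and scaled each library. The values are signal that the authors deposited, that is, counts times 1 factor per library, from a normalization over 10 libraries, of which 9 columns were used here and 0 other columns of values were left. Whole reads were recovered within 0.05 read and gave the depth. Genes passing filterByExpr (minimum count 10) were tested by limma 3.58.1 (R 4.3.3), all 9 libraries together, using log2(value + 1) and Benjamini-Hochberg adjustment over 13651 genes. The limits of 2-fold and 0.05 follow the study, but its gene set does not enter the main fit. The study compared genes of average RPKM over 100, a limit used here only as an alternative. The procedure was tested on simulated data. An exact permutation test of 3 against 3 cannot go below 0.1 (two-sided) and was not used.

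The members and gene lists were chosen with earlier results of these data known. Named were isoform pairs, complex II, several redox or catalytic subunits, every called member and the 3 largest differences in each direction. Uqcrc2, Uqcrh and single pathway genes were also chosen after their values were seen. Alternatives were edgeR 4.0.16 and DESeq2 1.42.0 on the recovered reads, other scalings, filters, pseudocounts, blocks and left-out libraries. Removal of GC content and length, and of HSC 2 with NASH-fib 1, were chosen after seeing the data. GC content was matched for 99.1% of genes, and promoter windows came from RefSeq.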

Additional observations from a re-analysis of the deposited data

How the results depend on the processing

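For CCl4-fib against HSCs, the 19 members called higher became 6 among genes of average RPKM over 100 (52 members tested), 5 with the date-like prefix as a block and 4 among genes under 1 read per base (28 members tested), and 4 to 28 without single libraries. The 1 called lower became 2 with DESeq2, 3 with the GC content and length correction, 0 in the RPKM subset, 0 with the replicate block and 0 with the prefix block, and 0 to 1 without single libraries. The median of 0.88 became 0.76 with TMM (0.07 over all genes), 0.79 with upper-quartile factors, 0.57 with edgeR (0.00 over all genes), 0.60 with DESeq2, 0.77 in the RPKM subset, 0.78 with a pseudocount of 10, 0.19 under 1 read per base, 0.51 without HSC 2 and NASH-fib 1 and 0.47 after the GC correction. Without single libraries it ran from 0.51 to 1.14.

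For NASH-fib against HSCs, the 2 members called higher became 0 in the RPKM subset, 0 with only the 2 groups in the fit, 1 with the replicate block, 0 with the prefix block and 1 under 1 read per base, and 0 to 2 without single libraries. The count was 0 without HSC 1, HSC 2, NASH-fib 2 or NASH-fib 3. The prefix block also sets aside HSC 1, the only library with its prefix. It leaves NASH-fib 1 and HSC 2 as the pair of these groups that shares a prefix. The median ran from -0.15 to 0.40 without single libraries.

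For NASH-fib against CCl4-fib, the 1 member called higher became 0 in the RPKM subset, with only the 2 groups, with the replicate block, with the prefix block and after the GC correction, and 0 to 1 without single libraries. The 16 called lower became 10 with edgeR, 4 in the RPKM subset, 8 with the replicate block, 3 with the prefix block, 3 under 1 read per base and 8 after the GC correction, and 2 to 18 without single libraries. The median ran from -0.97 to -0.07 without single libraries. Most counts and medians under these alternatives are given here without the value over all genes. They therefore do not show whether members lost calls more than other genes did. The cause of these changes was not tested, except that the RPKM and reads-per-base subsets tested fewer members.

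The replicate numbers share only a number. Deviations of same-numbered libraries correlated at -0.47 to 0.51, and 3 of 9 libraries correlated best with their own number. With the replicate block 20 members were called higher in CCl4-fib against HSCs. Over the named members, 903 values kept their direction and their side of the threshold, 230 lost the call, 20 gained it and 0 changed sign. Differences smaller than the spread of 3 pools, and levels of genes near the limit of 3 reads per position, could not be resolved.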

Other observations

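Subunits of 1 complex differed widely in level per kilobase of exon. Within complex II the highest subunit was 3.70 to 6.32 times the lowest in HSCs, 1.93 to 2.08 times in CCl4-fib and 6.49 to 8.92 times in NASH-fib, with Sdhb the lowest in each HSC and NASH-fib library. The core proteins of complex III, Uqcrc1 and Uqcrc2, stood at means of 13.6 and 988 per kilobase in HSCs. The means were 138 and 877 for CCl4-fib, against 14.9 and 1200 for NASH-fib.

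CCl4-fib 3 was under 50% of both CCl4-fib 1 and CCl4-fib 2 for 8 of the 81 tested members (9.88%, against 7.78% of all genes tested), namely Ndufa12, Ndufb5, Ndufb6, Ndufb8, Ndufc1, Ndufs7, Uqcrq and Ndufa4l2. All of these but Ndufb5 were also called higher in CCl4-fib against HSCs. They were picked for high values in CCl4-fib 1 and 2, which also enter that call, so the overlap was not independent of the choice. The share called among all genes low in CCl4-fib 3 was not counted.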
